A study of Rattus norvegicus with 4 samples.

Results

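Syndecans and glypicans are the proteoglycans that carry heparan sulfate chains at the cell surface, and their transcripts were followed in rat hepatic stellate cells, the retinoid-storing pericytes of the liver, after knockdown of endoglin. The genes were the 4 syndecans Sdc1, Sdc2, Sdc3 and Sdc4 and the 5 glypicans Gpc1, Gpc2, Gpc3, Gpc4 and Gpc6. Probes were chosen by gene name among 41012 gene probes of a whole-genome rat oligonucleotide array: 11 probes bore the names of 8 of these genes. A single further probe, filed under a locus number and described as similar to glypican-6, was matched to Gpc6 by its gene ID, which made 12 probes for 9 genes. The 9 genes were picked with earlier results of these arrays known, so the adjusted p-values below describe them and do not count as independent evidence for the choice. All 12 probes passed the filter on dim probes, and 11 of them stood well above background in both dyes on all 4 arrays.

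Each array set cells treated with endoglin siRNA, or untreated cells, labelled with Cy5, against cells given a control siRNA, labelled with Cy3. There were 2 arrays for endoglin siRNA and 2 for untreated cells. In each pair, 1 array held cells of 1 animal and the other held pooled material of 3 animals, for both dyes. The labels and files used here name no strain, sex, age, culture time, siRNA sequence or harvest time. The dyes were not swapped, so a difference from control siRNA and a dye preference of the probe cannot be told apart in a single group. The difference between the endoglin siRNA and the untreated arrays removes a constant dye preference. By their label the untreated cells were not transfected, so in that difference an effect of endoglin siRNA and one of transfection cannot be told apart. Whether the arrays of 1 animal shared a control RNA is not given, so p-values measure the spread between these arrays and leave out the spread of the control. A lower signal in such cultures can mean fewer cells of a type or less RNA per cell, which cannot be told apart.

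Syndecans are transmembrane core proteins with short cytoplasmic tails that bind PDZ proteins and, in Sdc4, take part in focal adhesions. Glypicans lack a tail and are held in the membrane by a glycosylphosphatidylinositol anchor. Through their heparan sulfate chains both families hold growth factors such as FGFs, BMPs, Wnts, hedgehogs and chemokines at the cell surface and present them to receptors. Endoglin, the siRNA target, is a co-receptor for TGF-beta and BMP ligands, and stellate cells are the main source of matrix in the injured liver.

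The start regions of 4 genes are shown because 3 of them, Sdc1, Sdc4 and Gpc4, had lower signals with endoglin siRNA than with control siRNA while Gpc3, a near neighbour of Gpc4, stood higher. RefSeq on the assembly GRCr8 had such windows, running from 250 bases before to 50 bases after the start, for 6 of the 9 genes. The windows shown lie on chr6:37281791-37282090 (plus strand), chr3:173592874-173593173 (minus strand), chrX:136676008-136676307 (minus strand) and chrX:137157549-137157848 (minus strand). Capitals mark GGGCGG (the GC box) and TATAA on either strand, so CCGCCC and TTATA are capitals too.
Sdc1: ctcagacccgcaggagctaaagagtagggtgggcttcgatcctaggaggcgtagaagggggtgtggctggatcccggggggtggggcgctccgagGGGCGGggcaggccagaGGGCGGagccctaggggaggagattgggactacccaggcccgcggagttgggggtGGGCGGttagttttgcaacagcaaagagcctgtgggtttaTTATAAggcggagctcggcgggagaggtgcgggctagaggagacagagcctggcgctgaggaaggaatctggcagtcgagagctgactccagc
Sdc4: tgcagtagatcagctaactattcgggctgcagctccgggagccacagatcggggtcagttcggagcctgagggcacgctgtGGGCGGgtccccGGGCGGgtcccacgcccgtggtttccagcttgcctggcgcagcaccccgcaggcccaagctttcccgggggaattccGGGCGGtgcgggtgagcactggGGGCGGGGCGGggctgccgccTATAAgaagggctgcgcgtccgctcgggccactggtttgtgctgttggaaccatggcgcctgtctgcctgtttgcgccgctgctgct
Gpc4: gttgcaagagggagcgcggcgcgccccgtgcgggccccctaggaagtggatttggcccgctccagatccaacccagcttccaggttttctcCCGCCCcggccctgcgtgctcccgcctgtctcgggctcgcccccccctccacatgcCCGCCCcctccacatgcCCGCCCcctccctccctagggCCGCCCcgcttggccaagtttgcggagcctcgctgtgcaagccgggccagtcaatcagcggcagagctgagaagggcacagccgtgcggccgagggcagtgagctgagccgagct
Gpc3: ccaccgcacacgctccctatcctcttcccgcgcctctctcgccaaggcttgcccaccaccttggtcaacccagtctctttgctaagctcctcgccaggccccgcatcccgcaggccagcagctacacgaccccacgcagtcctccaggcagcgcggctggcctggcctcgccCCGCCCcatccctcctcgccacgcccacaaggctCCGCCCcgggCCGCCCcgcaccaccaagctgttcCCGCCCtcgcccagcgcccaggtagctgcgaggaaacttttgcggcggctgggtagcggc
The GC box occurred 3 times in the Sdc1 window, 5 times in that of Sdc4 and 4 times each in those of Gpc4 and Gpc3, with overlapping matches counted. Among all 33469 windows in the table, 33.1% held at least 1 GC box. TATAA was present in the windows of Sdc1 (2 overlapping matches, 1 on each strand) and Sdc4 (1 match), against 26.2% of all windows, and these letters were not in those of Gpc4 and Gpc3. The Smad half-site CAGAC, counted on either strand, occurred 1 time in each of the windows of Sdc1 and Sdc4 and was in 50.1% of all windows. The palindrome GGCGCC, a GC-rich Smad motif, occurred 1 time in the Sdc4 window and was in 11.0% of all windows. The GC content of the 4 windows was 64.7% for Sdc1, 68.7% for Sdc4, 71.3% for Gpc4 and 71.0% for Gpc3, above the median of all windows at 51.7%. Between Gpc4 and Gpc3 on the X chromosome, RefSeq lists 3 genes, of which 2 are protein-coding.

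Endoglin itself was lower in the cells treated with its siRNA. Its log2 ratio to control siRNA was -3.08 for 1 animal and -1.72 for the pool with endoglin siRNA, against -0.36 and -0.42 in untreated cells. The fit gave -2.40 ± 0.26 (SE, n = 2 arrays, limma adjusted p = 0.0051), a 5.29-fold lower signal. In endoglin siRNA against untreated cells Eng read -2.02 ± 0.37 and did not pass (limma adjusted p = 0.1781). Without the disturbed spots described below it passed there (-2.09 ± 0.32, limma adjusted p = 0.0331). Of 14 stellate cell and myofibroblast markers, 12 were above background in all 8 dye channels, Des, Vim, Lrat and Pdgfrb among them. Of 11 Kupffer cell and leukocyte markers, 0 passed in endoglin siRNA against control siRNA and 4 were higher in untreated cells (C1qa by 1.16, Lyz2 by 1.70, Cd68 by 0.99 and C1qb by 0.96 on the log2 scale). In endoglin siRNA against untreated cells C1qa was lower (-1.09, limma adjusted p = 0.0382). The levels of these 11 markers were also summed after normalization within and between arrays, without the disturbed spots described below, and are not net scanner units. The Cy5 sum was 19400 and 3710 with endoglin siRNA and 45900 and 17700 in untreated cells (1 animal, then pool). The Cy3 sum of control siRNA cells was 21300 and 4440 beside endoglin siRNA and 23300 and 5110 beside untreated cells, in the same order. Of 8 hepatocyte markers, 2 (Tf and Fgb) were above background in all 8 channels, while Alb was in 2 of 8. Of 6 cholangiocyte markers, 3 (Cldn4, Sox9 and Spp1) were above background in all 8 channels, while Epcam was in 0 of 8. Sox9 (-1.09) and Spp1 (-0.49), listed as cholangiocyte markers but also known from stellate cells, were lower with endoglin siRNA than with control siRNA. Spp1 was also lower in endoglin siRNA against untreated cells (-1.67, limma adjusted p = 0.0256) and higher in untreated cells than with control siRNA (1.18, adjusted p = 0.0139). The Kupffer cell marker C1qa had the same directions in both of these comparisons. The part of these marker shifts in the results below was not tested.

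A few disturbed spots, 5 on the pooled untreated array and 4 on the pooled endoglin siRNA array, lay far below their local background. With them in the background fit of both pooled arrays, the estimated background mean was between -774.99 and -101.93 scanner units; without them it was between -17.00 and -7.50, as on the 1-animal arrays (-13.66 to -9.30). The fit on all spots, which had been set down as the main one, therefore added a large constant to the pooled arrays and drew the ratios of their dim probes towards 0. Values without these spots are given beside the results on the 9 genes and the counts of the lists where a call changes. Of the markers, C1qb (-0.76, limma adjusted p = 0.0315), Lyz2 (-2.52, adjusted p = 0.0385), Vsig4 (-0.98, adjusted p = 0.028) and Sox9 (-1.43, adjusted p = 0.0294) then passed as lower in endoglin siRNA against untreated cells. Kdr (1.35, adjusted p = 0.0039) passed as higher there, and C1qb (0.29, adjusted p = 0.047) passed as higher in endoglin siRNA against control siRNA. For untreated cells against control siRNA, Vsig4 (1.17, adjusted p = 0.0047) and C1qc (0.77, adjusted p = 0.0388) then passed as higher and Des (-0.77, adjusted p = 0.0287) as lower.

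Of the 9 genes, 3 passed in endoglin siRNA against control siRNA, all of them lower: Sdc1, Sdc4 and Gpc4. Over all 25497 genes tested, 8.13% passed in either direction, 5.26% as higher and 2.87% as lower. Without the disturbed spots 5 of the 9 passed, with Sdc3 lower and Gpc3 higher in addition, against 16.3% of all genes (8.96% higher and 7.37% lower). The median log2 ratio of the 9 genes was -0.18, against 0.02 for all genes. Because the rule for choosing the genes drew on results of this contrast, nothing is read from these counts. On the table of all probes, 4 of the 12 probes passed, the brighter Gpc3 probe being the fourth, against 8.28% of 29845 probes. With the log ratios of the scanner software 0 of the 9 passed in limma, as did 0 of all genes (7099 of them at an unadjusted p under 0.05).

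**Figure D1:**
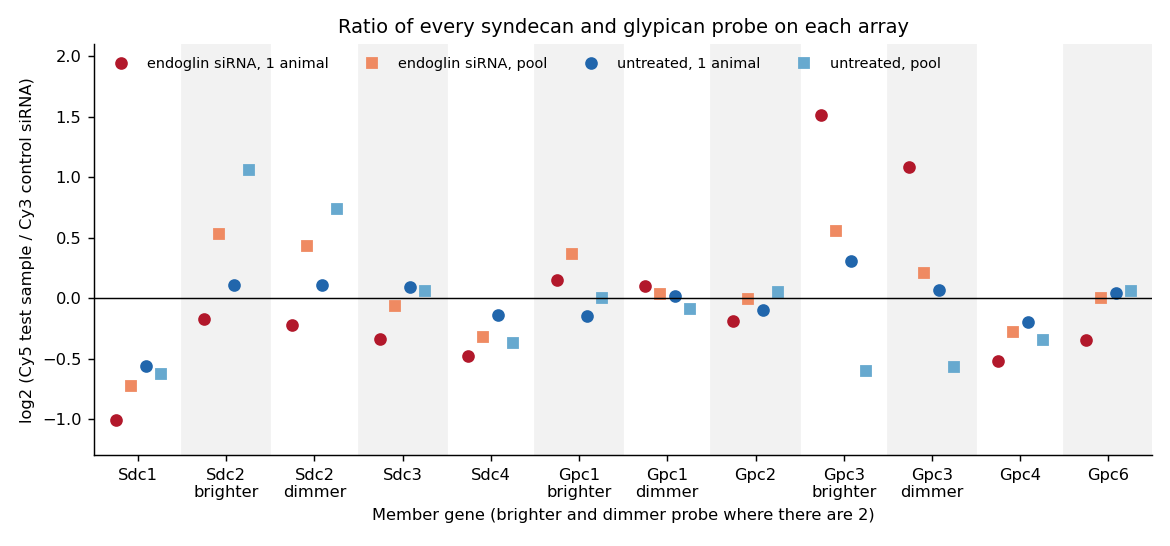
Log2 ratio of the Cy5 sample over Cy3 control siRNA for each of the 12 probes on each of the 4 arrays (circles, 1 animal; squares, pool; red and orange, endoglin siRNA; dark and light blue, untreated). All 4 points of Sdc1, Sdc4 and Gpc4 lie below 0, and the Gpc3 probes spread most, with 1.51 for the brighter probe on the 1-animal endoglin siRNA array and -0.60 on the pooled untreated array.

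Sdc1, in adult tissue mainly an epithelial and plasma cell syndecan, had the lowest ratios of the group. Its net signal (mean signal minus local background, in scanner units) with endoglin siRNA was 24321 for 1 animal and 21975 for the pool, and that of control siRNA on the same arrays was 14488 and 11579. In untreated cells the net signal was 31212 and 26503, against 14808 and 11404 for control siRNA. The net Cy5 signal exceeded the Cy3 signal for 29738 to 29832 of the 29845 kept probes on each array, and loess centres this dye difference on 0 at each brightness. After loess the log2 ratios were -1.01 and -0.73 with endoglin siRNA and -0.56 and -0.63 in untreated cells. All 4 arrays thus stood below their control, and the 2 groups did not overlap. Groups of 2 arrays can separate in this way for unchanged genes too, and the share of all genes without overlap is not given here. Nothing is therefore read from a lack of overlap, for Sdc1 or for the genes below. The fitted ratio was -0.87 ± 0.08 for endoglin siRNA against control siRNA (SE, n = 2 arrays, limma adjusted p = 0.0042), a 1.83-fold lower signal. For untreated cells against control siRNA it was -0.59 ± 0.08 (limma adjusted p = 0.0332), 1.51-fold lower. Endoglin siRNA against untreated cells gave -0.27 ± 0.11, which did not pass (limma adjusted p = 0.5909). The endoglin siRNA call held when either endoglin siRNA array was left out. In the fit on all spots the untreated call ended when either untreated array was left out (-0.63 without 1 animal and -0.56 without the pool). Without the disturbed spots the untreated call ended without the pooled untreated array (-0.56) and not without the 1-animal one (-0.64).

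Sdc4, the widely expressed syndecan of focal adhesions, which binds protein kinase C alpha, was lower with endoglin siRNA by a smaller amount. The log2 ratios were -0.48 for 1 animal and -0.32 for the pool with endoglin siRNA, and -0.14 and -0.37 in untreated cells; the pooled untreated value lay between the 2 endoglin siRNA values, so the groups overlapped. The fitted ratio to control siRNA was -0.40 ± 0.08 for endoglin siRNA (SE, n = 2 arrays, limma adjusted p = 0.027), 1.32-fold lower. For untreated cells it was -0.25 ± 0.08 (adjusted p = 0.2156). The call ended without the 1-animal endoglin siRNA array (-0.32, adjusted p = 0.1661). Without the disturbed spots the arrays read -0.48 and -0.48 with endoglin siRNA and -0.14 and -0.34 in untreated cells, with no overlap. The fitted ratio was then -0.48 (adjusted p = 0.0065), and this call ended when either endoglin siRNA array was left out (adjusted p = 0.0584 without 1 animal and 0.0676 without the pool).

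The level of Sdc4 differed between the 1-animal arrays in both dyes. Its net Cy5 signal was 9809 on the endoglin siRNA array and 2350 on the untreated array, and its net Cy3 signal, from control siRNA cells in both cases, was 4340 and 975. The normalized Cy3 level thus differed by 2.11 on the log2 scale (4.31-fold) between arrays whose control levels otherwise had a standard deviation of log2 differences of 0.34. Of 29845 kept probes, 43 differed at least as far in either direction. On the pooled arrays the Cy3 signals of Sdc4 were 1952 beside endoglin siRNA and 2111 beside untreated cells, a difference of -0.08 on the log2 scale. Since both dyes moved together, the ratios were much less affected than the levels. The gene has 1 probe, so no second probe bears on this.

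**Figure D2:**
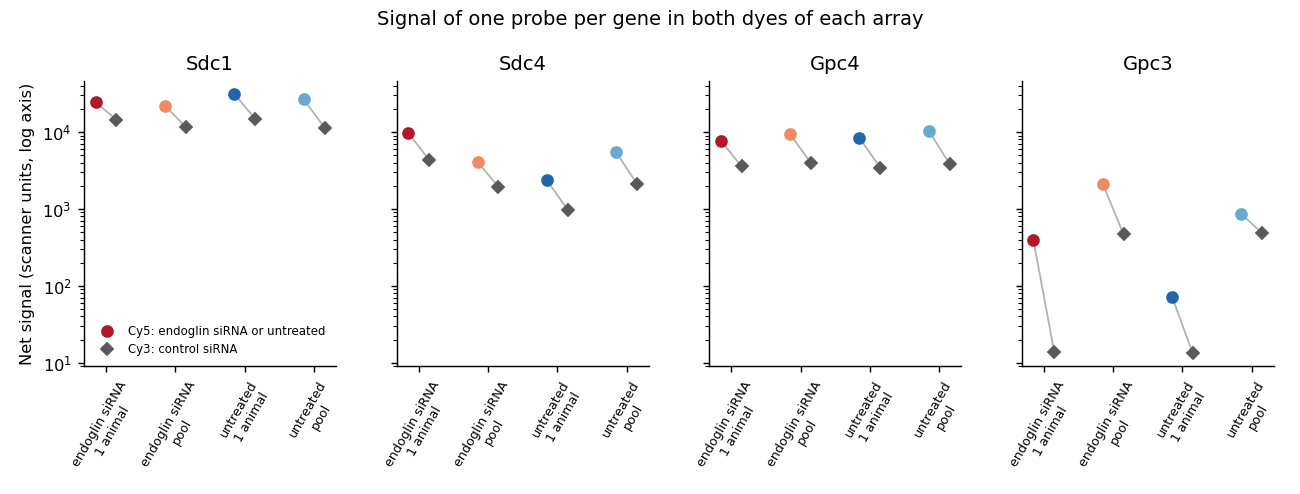
Net signal on a log axis for 1 probe each of Sdc1, Sdc4, Gpc4 and Gpc3 on each array, with Cy5 (endoglin siRNA or untreated, coloured circles) left of Cy3 (control siRNA, grey diamonds). Both dyes of Sdc4 stand higher on the 1-animal endoglin siRNA array than on the 1-animal untreated array, and the Cy3 signal of Gpc3 is 13.2 to 14.0 on the 1-animal arrays and 470 to 481 on the pooled arrays.

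Sdc2, the syndecan most typical of mesenchymal cells, did not pass in any of the 3 comparisons, and its ratios followed the source of the RNA more than the treatment. The brighter probe read -0.17 for 1 animal and 0.53 for the pool with endoglin siRNA, and 0.11 and 1.06 in untreated cells. The dimmer probe read -0.22 and 0.43 with endoglin siRNA and 0.11 and 0.74 in untreated cells, so both probes were higher in the pool in both groups. The fitted ratio was 0.18 ± 0.23 for endoglin siRNA against control siRNA (limma adjusted p = 0.7079), 0.59 ± 0.23 for untreated cells against control siRNA (adjusted p = 0.3162) and -0.40 ± 0.32 between endoglin siRNA and untreated cells (adjusted p = 0.8481). The endoglin siRNA ratio turned to -0.17 without the pooled endoglin siRNA array.

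Sdc3, best known as the neural syndecan, was represented under its own name by a dim probe. Its ratios were -0.34 and -0.07 with endoglin siRNA, and 0.09 and 0.06 in untreated cells, so the endoglin siRNA arrays lay below both untreated arrays. The fitted ratio to control siRNA was -0.20 ± 0.08 and did not pass (adjusted p = 0.1708), but without the disturbed spots the pooled value was -0.32 and the fit gave -0.33 ± 0.07 (limma adjusted p = 0.0178). That call ended without the 1-animal endoglin siRNA array (-0.32, adjusted p = 0.1393) and without the pooled one (-0.34, adjusted p = 0.1513).

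A further probe, TC536649, is described in the array files as a partial syndecan-3 precursor and lies on chromosome 5, as the Sdc3 probe does. It falls outside the naming rule and was taken up after its values had been seen. Its net Cy5 signal was 13103 and 10250 with endoglin siRNA and 19632 and 20067 in untreated cells. The log2 ratio to control siRNA was -0.88 ± 0.06 for endoglin siRNA (limma adjusted p = 0.0025) and -0.20 ± 0.06 for untreated cells (adjusted p = 0.2037). Between endoglin siRNA and untreated cells TC536649 read -0.67 ± 0.09 (adjusted p = 0.0686), and -0.73 ± 0.10 without the disturbed spots (adjusted p = 0.0252). With 1 array fewer it passed without the pooled endoglin siRNA array in the fit on all spots (-0.70, adjusted p = 0.0228) and without the 1-animal untreated array in the fit without the disturbed spots (-0.77, adjusted p = 0.0241), and not in the other fits of these kinds. It was thus the syndecan probe with the widest gap between these groups, and the Sdc3 probe had the same sign at -0.28 ± 0.11 (adjusted p = 0.561).

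Among the glypicans, Gpc4 was lower with endoglin siRNA. The gene encodes a broadly expressed glypican that takes part in Wnt and FGF signalling. Its log2 ratios were -0.52 for 1 animal and -0.28 for the pool with endoglin siRNA, and -0.20 and -0.35 in untreated cells, and the groups overlapped. The fitted ratio to control siRNA was -0.40 ± 0.08 for endoglin siRNA (limma adjusted p = 0.0268), 1.32-fold lower, and -0.27 ± 0.08 for untreated cells (adjusted p = 0.1887). The endoglin siRNA call ended without the 1-animal endoglin siRNA array (-0.28, adjusted p = 0.177) and without either untreated array (-0.40, adjusted p = 0.0556). Without the disturbed spots Gpc4 read -0.52 and -0.35 with endoglin siRNA and -0.20 and -0.31 in untreated cells, with no overlap. The fitted ratio was then -0.44 ± 0.08 (adjusted p = 0.0091), and the call held without either untreated array (adjusted p = 0.0058) and without the pooled endoglin siRNA array (-0.52, adjusted p = 0.0417) but not without the 1-animal one (-0.35, adjusted p = 0.1158). Between endoglin siRNA and untreated cells Gpc4 differed by -0.13 ± 0.11 (adjusted p = 0.8724).

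Gpc3, a glypican of fetal tissues and of human liver cancer that binds hedgehog proteins, had the highest fitted ratio of endoglin siRNA to control siRNA among the 9 genes. The brighter probe read 1.51 for 1 animal and 0.55 for the pool with endoglin siRNA, and 0.31 and -0.60 in untreated cells. The dimmer probe read 1.08 and 0.21 with endoglin siRNA, and 0.07 and -0.57 in untreated cells. Within each source the endoglin siRNA ratio was above the untreated ratio on both probes, by 1.20 for 1 animal and 1.15 for the pool on the log2 scale on the brighter one. The fitted ratio of endoglin siRNA to control siRNA was 1.03 ± 0.25 (SE, n = 2 arrays), 2.04-fold, and just missed the threshold (limma adjusted p = 0.0515). Without the disturbed spots it passed at 1.06 ± 0.26 (adjusted p = 0.029). Without the 1-animal endoglin siRNA array the ratio was 0.55 (adjusted p = 0.3578), or 0.61 (adjusted p = 0.2615) with the disturbed spots left out too, whereas without the pooled endoglin siRNA array it was 1.51 (adjusted p = 0.0107) and without either untreated array 1.03 (adjusted p = 0.0479). On the table of all probes the brighter probe passed (adjusted p = 0.0462) and the dimmer one did not (0.64, adjusted p = 0.106).

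Endoglin siRNA against untreated cells gave 1.18 ± 0.36 for Gpc3, 2.26-fold (limma adjusted p = 0.3951). This comparison passed when the pooled endoglin siRNA array was left out (1.65, adjusted p = 0.0442) and, without the disturbed spots, when the 1-animal untreated array was left out (1.85, adjusted p = 0.0154). The net Cy5 signal of the brighter probe was 399 and 2127 with endoglin siRNA, and 72.2 and 859 in untreated cells. Its Cy3 signal for control siRNA was 14.0 and 470 beside endoglin siRNA, and 13.2 and 481 beside untreated cells. The control level was therefore much lower in the cells of 1 animal than in the pool: the pooled arrays exceeded the 1-animal arrays by 2.90 on the log2 scale (7.48-fold), and 47 of 29845 probes differed at least as far. The Cy3 signals for 1 animal lay below the offset of 50 added to every signal, which by construction draws this difference and the ratios towards 0; the log2 ratios of the scanner software for 1 animal were 2.80 with endoglin siRNA and 0.72 in untreated cells. The dimmer probe was not well above background in Cy3 of the 1-animal endoglin siRNA array.

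The remaining glypicans did not pass in any of the 3 comparisons. Gpc1, the glypican most studied in FGF signalling, read 0.15 and 0.36 with endoglin siRNA and -0.15 and 0.00 in untreated cells on its brighter probe, with no overlap. Its fitted ratio to control siRNA was 0.26 ± 0.08 for endoglin siRNA (limma adjusted p = 0.0883), and the dimmer Gpc1 probe gave 0.06 (adjusted p = 0.6391). Gpc6, the closest relative of Gpc4, read -0.35 and 0.00 with endoglin siRNA and 0.04 and 0.06 in untreated cells. Its fitted ratio was -0.18 ± 0.09 (adjusted p = 0.2975), and -0.35 (adjusted p = 0.0429) without the pooled endoglin siRNA array. Gpc2, a glypican of the developing nervous system, was dim, with net Cy5 signals of 45.2 and 51.5 with endoglin siRNA and 40.6 and 316 in untreated cells. Its ratio was -0.10 ± 0.07 (adjusted p = 0.4861), and no difference was detectable at this signal. Gpc5, a further glypican with a probe on the array, was well above background in 2 of 8 channels and was not tested.

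**Figure D3:**
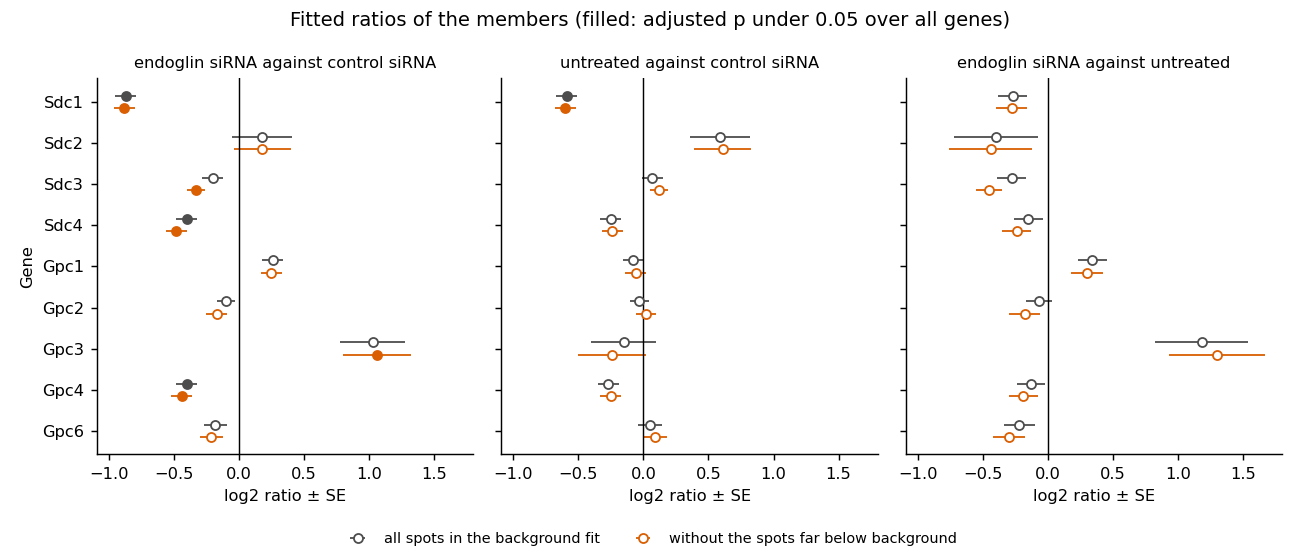
Fitted log2 ratio with its standard error for the 9 genes in the 3 comparisons, from the fit on all spots (grey) and the fit without the disturbed spots (orange); filled points have a limma adjusted p under 0.05 over all genes. Filled points lie below 0 for Sdc1, Sdc4 and Gpc4, without the disturbed spots also for Sdc3, and above 0 only for Gpc3.

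In untreated cells against control siRNA, Sdc1 alone of the 9 genes passed, as lower, with and without the disturbed spots. Of all genes 0.710% passed in either direction and 0.275% as lower, and without the disturbed spots 1.84% and 0.757%. The other genes had ratios between -0.27 (Gpc4) and 0.59 (Sdc2), and the median of the 9 was -0.08, against 0.00 for all genes. In endoglin siRNA against untreated cells 0 of the 9 passed in limma, with or without the disturbed spots (0.102% and 0.812% of all genes passed), and 4 of the 9 had an unadjusted p under 0.05, as did 2099 of the 25497 genes. Here 7 of the 9 ratios were negative, with a median of -0.15 against 0.02 for all genes, and Gpc3 (1.18) and Gpc1 (0.34) were the positive ones. The 2 comparisons with control siRNA and the comparison between them draw on the same arrays, so their values are given side by side only.

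The direction of the lower calls rests on the loess step. With each array centred on its median instead, the ratio of endoglin siRNA to control siRNA was 0.36 for Sdc1, 0.61 for Sdc4, 0.68 for Gpc4 and 0.26 for TC536649, none of which passed, while Gpc3 stayed positive. Of 733 genes that passed as lower, 667 turned sign in this way. The setting leaves in each array a trend of the ratio with brightness: the 1000 kept probes closest to Sdc1 in brightness had a median-centred ratio of 0.95 and 1.38 on the endoglin siRNA arrays, and Sdc1 read 0.01 and 0.71 there. For Sdc4 these neighbours stood at 0.91 and 1.23, against 0.43 and 0.79 for Sdc4, and for Gpc4 at 0.90 and 1.31, against 0.37 and 0.98. On the untreated arrays Sdc1 read 0.43 and -1.18, against 0.96 and -0.61 for its neighbours, Sdc4 read 0.57 and -0.96, against 0.72 and -0.66, and Gpc4 read 0.63 and -0.93, against 0.82 and -0.64. All 3 genes thus lay below probes of like brightness on all 4 arrays, which is what the loess ratios express in another form.

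Genes with ratios most like those of the members that passed were taken by the distance over the 4 log2 ratios, as a description. For Sdc1 they were Cnpy4 (distance 0.07), Ptprn (0.12) and Pkm-ps20 (0.21). For Sdc4 they were Kdelr2 (0.06), Luzp1 (0.08) and Shisa5 (0.09), and for Gpc4 they were Map7d1 (0.07), G6pc3 (0.09) and Tmem14c (0.09). The nearest gene to Sdc1, Cnpy4, read -0.97 and -0.72 with endoglin siRNA, and -0.54 and -0.68 in untreated cells.

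The enzymes that build heparan sulfate chains showed a small number of lower genes. Of 17 tested genes of linker and chain synthesis, 3 passed in endoglin siRNA against control siRNA, all lower (2.87% of all genes passed as lower), with a list median of -0.09 against 0.02 for all genes. Without the disturbed spots 4 passed, all lower, against 7.37% of all genes, with the xylosyltransferase Xylt2 in addition (-0.44, adjusted p = 0.0061). They were Ugdh, which makes UDP-glucuronate (-0.42 ± 0.07, limma adjusted p = 0.0165), Ext2, a subunit of the chain polymerase (-0.40 ± 0.07, adjusted p = 0.019), and Slc35b2, which carries the sulfate donor into the Golgi (-0.27 ± 0.06, adjusted p = 0.0495). The median-centred ratios of Ugdh, Ext2 and Slc35b2 were 0.75, 0.62 and 0.91, so the sign of each turned in that setting. Ext1, the other polymerase subunit, read -0.21 and did not pass. The calls of Ext2 (-0.30) and Slc35b2 (-0.21) ended without the 1-animal endoglin siRNA array, that of Ugdh without the pooled one (-0.37, adjusted p = 0.0533) and that of Slc35b2 whichever of the 4 arrays was left out. Of 9 sulfotransferases, epimerase and related genes of chain modification, 0 passed in the limma fit on all spots. Without the disturbed spots 2 passed as lower in limma: the epimerase Glce (-0.46, adjusted p = 0.0076) and Hs3st3a1 (-0.25, adjusted p just under 0.05). The second probes of Glce and Hs3st3a1 then read -0.18 and -0.03.

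Among other heparan sulfate proteoglycans and the genes that trim or release the chains, 0 passed in endoglin siRNA against control siRNA in the fit on all spots. Over all genes 8.13% passed there, and 16.3% without the disturbed spots (7.37% as lower). With lists of 9 to 11 genes, nothing is read from these counts. Of 9 other proteoglycans with such chains, which included perlecan (Hspg2), betaglycan (Tgfbr3) and neuropilin (Nrp1), 0 passed in limma with or without the disturbed spots; the largest ratios were 0.40 for Cd44, whose second probe read 0.00, and 0.24 for Agrn (agrin). Of 11 genes of chain editing and degradation 0 passed in limma, and 1, the lysosomal glucuronidase Gusb, passed as lower without the disturbed spots (-0.28, adjusted p = 0.046). Of 10 genes of shedding and release 0 passed, and 2 passed as lower without the disturbed spots, the protease Furin (-0.52, adjusted p = 0.0081) and Thbs1 (-0.48, adjusted p = 0.0471). The sheddase genes Adam17 and Mmp14 read 0.09 and -0.33 and did not pass.

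Partners of the syndecans in adhesion were lower where they passed. Of 19 tested cytoplasmic and adhesion partners, 5 passed in endoglin siRNA against control siRNA, all lower (2.87% of all genes), with a list median of -0.09; without the disturbed spots it was 8, all lower (7.37% of all genes). Among them were the alpha-actinins Actn4 (-0.72 ± 0.07, limma adjusted p = 0.0042) and Actn1 (-0.45 ± 0.07), which cross-link actin, fibronectin Fn1 (-0.57 ± 0.10) and the PDZ protein Gipc1 (-0.56 ± 0.07). Median centring gave 0.53 for Actn4, 0.69 for Actn1, 0.69 for Fn1 and 0.44 for Gipc1. Gipc1, which binds the tails of both syndecan-4 and endoglin, was also lower in untreated cells (-0.51, adjusted p = 0.0383), with ratios of -0.56 and -0.55 with endoglin siRNA and -0.39 and -0.63 in untreated cells. Syntenin (Sdcbp), the main PDZ partner of syndecan tails, read 0.05 and did not pass. The call of Actn1 ended without the 1-animal endoglin siRNA array (-0.38) and that of Fn1 without the pooled one (-0.39).

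Ligands that bind heparan sulfate changed in both directions. Of 27 tested ligands 4 were higher and 3 lower with endoglin siRNA than with control siRNA, against 5.26% and 2.87% of all genes, with a list median of 0.07. Leaving out the disturbed spots, 8 were higher and 7 lower, against 8.96% and 7.37% of all genes. Rspo3, an R-spondin that strengthens Wnt signals, read 0.84 and 0.77 with endoglin siRNA and 0.07 and 0.07 in untreated cells. It was higher both against control siRNA (0.80 ± 0.06, limma adjusted p = 0.0032) and against untreated cells (0.74, adjusted p = 0.0499). The chemokine Cxcl12 read -0.61 and -0.91 with endoglin siRNA and 0.31 and 0.25 in untreated cells, and was lower against both control siRNA (-0.76 ± 0.08, adjusted p = 0.0052) and untreated cells (-1.04, adjusted p = 0.0475). A second Cxcl12 probe gave -0.20 and did not pass, and median centring turned the ratio of the first to 0.62. The guidance ligand Slit3 was lower (-0.88 ± 0.10, adjusted p = 0.0052), and without the disturbed spots also against untreated cells (-0.83, adjusted p = 0.0204). The ligand Bmp4 was higher (0.65 ± 0.14, adjusted p = 0.0352), though not without the 1-animal endoglin siRNA array (0.34, adjusted p = 0.1803) or without either untreated array (adjusted p = 0.0616). Fgf2, a classical heparan sulfate ligand, read -0.41 (adjusted p = 0.0524) and passed as lower without the disturbed spots (-0.60, adjusted p = 0.005).

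Receptors and pathway genes for these ligands also moved in both directions, with 3 of 21 tested genes higher and 3 lower (5.26% and 2.87% of all genes) and a list median of -0.05. Leaving out the disturbed spots, 5 were higher and 4 lower (8.96% and 7.37% of all genes). Fgfr1, a main FGF receptor of mesenchymal cells, read -0.72 ± 0.12 (limma adjusted p = 0.0175) on its brighter probe and -0.08 on the other. Fzd7, a Wnt receptor, read -0.67 ± 0.09 (adjusted p = 0.0094) and -0.06 on its second probe. Both were lower against untreated cells too when the disturbed spots were left out, Fgfr1 at -0.81 (adjusted p = 0.0244) and Fzd7 at -0.79 (adjusted p = 0.0192). Fgfr2 was higher by 0.72 ± 0.11 (adjusted p = 0.0134) on its brightest probe, whereas its 3 other probes read -0.17 to -0.09, and it was higher in untreated cells as well (0.78, adjusted p = 0.0383). Cd81, a tetraspanin that binds glypican-3, was lower (-0.41 ± 0.07, adjusted p = 0.0197), at -0.48 and -0.34 with endoglin siRNA and -0.51 and -0.32 in untreated cells. The call of Cd81 ended without the 1-animal endoglin siRNA array (-0.34, adjusted p = 0.118). Median centring gave 0.05 for Fgfr1, 0.13 for Fzd7 and 0.88 for Cd81. Of the hedgehog receptor and targets, Ptch1 and Gli1 read 0.07 and 0.05 and did not pass, while Gli2 was higher (0.38 ± 0.07, adjusted p = 0.0202). Hhip, a hedgehog target that binds the ligand, read 0.38 (adjusted p = 0.0808); without the disturbed spots it was higher against control siRNA (0.72, adjusted p = 0.0015) and against untreated cells (0.71, adjusted p = 0.0362).

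**Figure D4:**
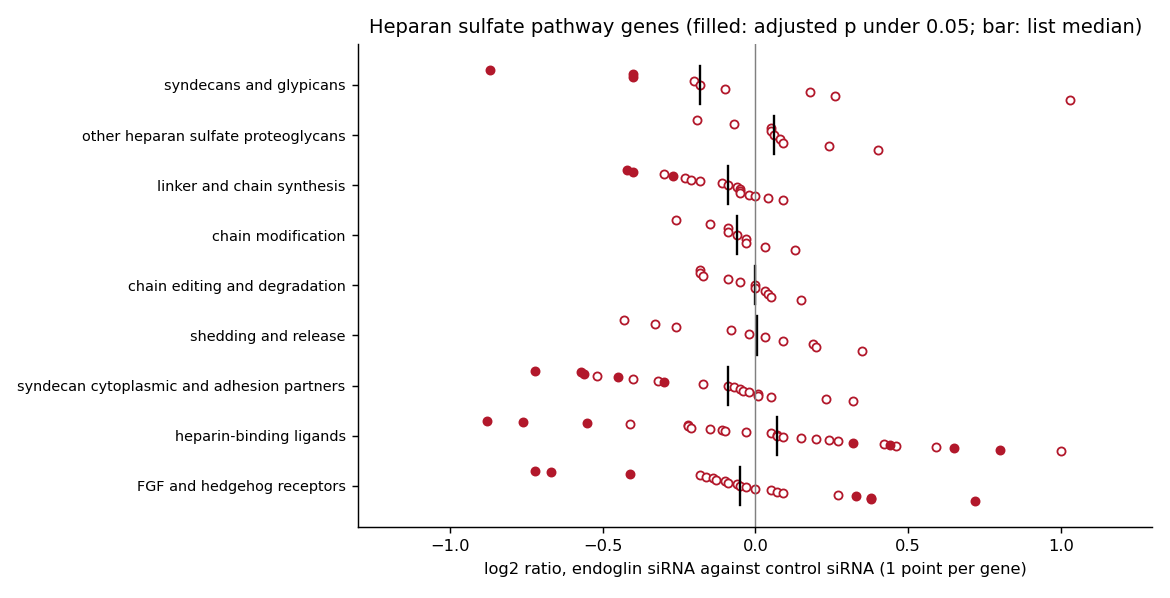
Log2 ratio of endoglin siRNA against control siRNA for every tested gene of the syndecan and glypican group and of 8 related lists, 1 point per gene in the fit on all spots, filled where the limma adjusted p over all genes was under 0.05; the bar is the list median. Filled points of chain synthesis and of the adhesion partners all lie below 0, and those of the ligands and receptors lie on both sides.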

How the data were processed

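RNA of rat hepatic stellate cells was hybridized to 4 two-colour Agilent whole rat genome arrays on 1 slide read in 1 scan, with endoglin siRNA or untreated cells in Cy5 and control siRNA cells in Cy3, per the labels. The authors used Agilent Feature Extraction, version 9.5.1.1 by the file headers. Mean and background signals were deposited as linear intensity, and the log ratios deposited with them are log10 values, Cy5 over Cy3. The deposited value table is on the log10 scale too, and its correlation with these log ratios was 1 for endoglin siRNA and -1 for untreated arrays, which were turned (their opposite sign is not explained in the labels or files). The labels' dyes set every direction.

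From the intensities, local background was removed by normexp with an offset of 50, ratios were normalized within arrays by loess with control spots at weight 0, and the non-outlier spots of a probe were averaged as log2 ratios. Probes well above background in at least 1 dye on at least 2 arrays and measured on all 4 were kept (29845), and the brightest stood for each gene (25497 genes). Limma 3.58.1 in R 4.3.3 fitted the 2 group means on all 4 arrays, with Benjamini-Hochberg adjustment at 0.05 over all genes, and was tested on simulated data. Precision is limited by having 2 arrays in a group. Names were brought up to date with RefSeq (GRCr8); 12657 genes matched nothing and kept the array's name. No build is stated for the array annotation in the labels or headers. RefSeq windows around gene starts (GRCr8) were searched for short motifs on both strands.

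The members and lists were chosen with earlier results of these data known. Named genes were every member with every probe, Eng, from each list the passing genes (at most 4, by size) or else the 2 largest, and for each passing member the 3 nearest genes over the 4 ratios. Genes named beyond this were chosen after their values were seen. Marker sets covered stellate, Kupffer, endothelial, hepatocyte, cholangiocyte and portal fibroblast genes. In addition to those described for other sets, 1 of 6 tested endothelial markers (Kdr, 0.87) was higher with endoglin siRNA than with control siRNA, and 0 of 8 portal fibroblast and 0 of 6 hepatocyte markers passed.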

Additional observations from a re-analysis of the deposited data

How the results depend on the processing

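Of the 9 genes, 5 passed in endoglin siRNA against control siRNA without background correction and 5 without the disturbed spots, against 3 in the fit as reported. In limma 0 passed in either comparison with control siRNA with Feature Extraction log ratios, with the authors' value table, after median centring or after scaling between arrays, and over all genes 0 passed too (7099, 7097, 6181 and 1419 at an unadjusted p under 0.05 for endoglin siRNA, and 3329, 3330, 73 and 579 for untreated cells). Leaving out 1 array at a time, with the lone array of a group assumed to vary like the others, gave 1 to 6 genes for endoglin siRNA against control siRNA, 0 to 2 for untreated against control siRNA and 0 to 1 for endoglin siRNA against untreated; the fits that left out an array as well as the disturbed spots were added after seeing the data. With the RNA source as a replicate block, 1 gene passed in endoglin siRNA against untreated (Gpc3, 1.18, adjusted p = 0.002), and 2 passed when the disturbed spots were left out as well (Gpc3 and Sdc3). Whether 1-animal arrays share their animal is not stated, and deviations of same-source arrays from their group means had a correlation of 0.29 over genes, so the block is a hint from the data and not the design. Over all genes it raised the count from 26 to 267; it is given for this comparison alone, since each array carries its own control. Over all genes the count for endoglin siRNA against control siRNA was 2074, against 4164 without the disturbed spots, 4503 without background correction and 882 to 2668 when an array was left out of the fit on all spots; for untreated cells it was 181, against 470, 514 and 0 to 755. Both other filters on dim probes and the mean over all kept probes left the counts among the 9 genes within 1.5 times of those reported. Over all genes, having no filter gave 360 for untreated cells, and endoglin siRNA against untreated gave 47 with no filter, 17 with the mean of all kept probes, 207 without the disturbed spots, 170 without background correction and 0 to 428 when an array was left out, against 26. Of 974 single-gene values under alternatives, 761 kept direction and side of the threshold, 102 lost a call, 67 gained one and 44 turned sign.

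Median centring turned endoglin siRNA against control siRNA to 0.36 for Sdc1, 0.09 for Sdc3, 0.61 for Sdc4, 0.68 for Gpc4, 0.21 for Gpc6, 0.26 for TC536649, 0.75 for Ugdh, 0.62 for Ext2, 0.91 for Slc35b2, 0.19 for Glce, 0.13 for Hs3st3a1, 0.63 for Gusb, 0.11 for Naglu, 0.51 for Furin, 0.53 for Actn4, 0.69 for Fn1, 0.44 for Gipc1, 0.69 for Actn1, 0.62 for Cxcl12, 0.05 for Fgfr1, 0.13 for Fzd7 and 0.88 for Cd81. It turned endoglin siRNA against untreated to 0.73 for Sdc1, 0.58 for Sdc2, 0.80 for Sdc4, 0.83 for Gpc4, 0.11 for Gpc6 and 0.28 for TC536649, and untreated against control siRNA to 0.06 for Gpc1; this setting leaves in the trend of the ratio with brightness. Scaling between arrays turned Sdc2 in endoglin siRNA against untreated to 0.16. Gpc2 in untreated against control siRNA turned to 0.04 without background correction and to 0.02 without the disturbed spots, and without 1 array it read -0.10 to 0.14. Leaving out an array gave ranges that cross 0 for Sdc2 (-0.17 to 0.53 for endoglin siRNA against control siRNA, -0.94 to 0.07 against untreated), Gpc1 (-0.15 to 0.04 for untreated against control siRNA), Gpc2 (-0.31 to 0.01 for endoglin siRNA against untreated) and Gpc3 (-0.80 to 0.31 for untreated against control siRNA). For the turns other than those of median centring, the cause was not tested. Gpc2 was dim, with net Cy3 signals of 17.5 to 63.0, which limits what can be seen of it.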
